A study of Mus musculus with 4 samples.

Results

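The genes described here are 10 early response genes, Fos, Fosb, Fosl2, Jun, Junb, Jund, Atf3, Egr1, Myc and Ier3, chosen by name as the rows of the deposited count matrices that carry these symbols. They are 10 of 33954 genes in the matrices, and all 10 had at least 1 count in the nuclei kept. Fos, Jun and Atf3 proteins pair through leucine zippers to form AP-1, a transcription factor that binds short palindromic DNA sites. Most of these genes are immediate early genes: growth factors, stretch, hypoxia and inflammatory signals switch them on within minutes without new protein synthesis, and their mRNAs are short-lived. In the heart they are known as responders to ischaemia, pressure load and tissue dissociation.

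Nuclei were isolated from whole adult mouse hearts, and RNA was counted by 10x Genomics droplet sequencing with a kit that reads the 5′ end of each transcript. The Q150X mice carried a Vegfa allele edited by CRISPR/Cas9 to mirror a human variant that introduces a stop codon in VEGFA, the vascular endothelial growth factor gene. There were 4 libraries, 1 for each group: Q150X at 3 days after myocardial infarction (3dpMI), wild type (WT) at 3dpMI, Q150X at homeostasis and WT at homeostasis. The labels do not say whether a library pooled several hearts, and the sources write the Q150X genotype both as Q150X/Q150 and as HO, so its zygosity is given only as labelled. No group had a replicate, so no test between groups was possible. Intervals are given at 95% and reflect the counting of molecules alone, not the spread between hearts, and they are too narrow where several molecules came from the same nucleus.

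After filters on depth and doublets, 7364 nuclei of the Q150X 3dpMI library, 8479 of WT 3dpMI, 6142 of Q150X homeostasis and 4167 of WT homeostasis were kept, 26152 of 28216 in all. Median counts of unique molecules (UMIs) per nucleus were 2671, 2029, 968 and 921 in the same libraries, so the homeostasis libraries are the shallower ones. Pairs of libraries shared 39 to 117 cell barcodes. The 25 clusters gave 13 classes named from marker genes, and 1 cluster led by Selp and Vwf stayed unnamed. A level is given as CPM, the UMIs of a gene summed over a class, divided by all UMIs of that class and scaled to a common total. RNA of cardiomyocytes was found in other classes: their 12 markers summed to 1011 CPM in vascular endothelial nuclei of Q150X 3dpMI, 4755 in WT 3dpMI, 9123 in Q150X homeostasis and 3332 in WT homeostasis. None of the 12 was at 0 there, and the part of this RNA in the results was not tested. Erythroid markers, 7 in all, summed to 17.7 to 102 CPM at 3dpMI and to 353 to 14070 CPM at homeostasis over the cardiomyocyte, vascular endothelial, fibroblast, pericyte and macrophage or monocyte classes, with 0 to 3 of the 7 at 0. They scored above the markers of the class itself in fibroblast cluster 2 and vascular endothelial cluster 14, though fewer than 3 of them were detected there in 10% of nuclei or more and above the other clusters. The median share of mitochondrial UMIs per nucleus was 0.126% in Q150X 3dpMI, 0.164% in WT 3dpMI, 0.794% in Q150X homeostasis and 0.862% in WT homeostasis.

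The promoters are shown because sites for AP-1 and CREB are known to control genes of this family, Jun by its own product among them. RefSeq promoter windows (build GRCm38.p6, 250 bases before to 50 after the start) were searched for 8 of the 10 genes, all but Egr1 and Myc. The 250 bases before the start are printed in transcription order, and capitals mark TGACG, the core of a cAMP response element, TGACNTCA, an AP-1 or CREB site, and GCGNGGGCG, the Egr1 site.
Fos, chr12:85473640-85473889, plus strand: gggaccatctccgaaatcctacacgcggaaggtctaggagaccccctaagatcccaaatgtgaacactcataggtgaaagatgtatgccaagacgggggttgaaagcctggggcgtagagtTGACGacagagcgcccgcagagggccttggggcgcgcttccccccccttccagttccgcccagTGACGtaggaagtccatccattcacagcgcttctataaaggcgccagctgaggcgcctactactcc
Fosb, chr7:19310046-19310295, minus strand: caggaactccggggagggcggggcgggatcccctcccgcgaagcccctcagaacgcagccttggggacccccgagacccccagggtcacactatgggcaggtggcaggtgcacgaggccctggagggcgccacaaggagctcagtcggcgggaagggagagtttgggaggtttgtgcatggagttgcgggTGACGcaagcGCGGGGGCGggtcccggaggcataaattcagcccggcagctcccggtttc
Jun, chr4:95052223-95052472, minus strand: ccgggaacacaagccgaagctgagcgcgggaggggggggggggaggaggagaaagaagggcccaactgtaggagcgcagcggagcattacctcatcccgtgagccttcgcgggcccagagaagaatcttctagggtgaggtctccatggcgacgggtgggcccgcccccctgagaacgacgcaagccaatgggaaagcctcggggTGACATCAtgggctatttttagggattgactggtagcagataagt
Junb, chr8:84978749-84978998, minus strand: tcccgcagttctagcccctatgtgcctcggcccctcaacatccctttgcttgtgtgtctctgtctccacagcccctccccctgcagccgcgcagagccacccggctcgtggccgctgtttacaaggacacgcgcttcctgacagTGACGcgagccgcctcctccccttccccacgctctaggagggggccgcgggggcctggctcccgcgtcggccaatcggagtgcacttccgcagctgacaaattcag
Searched on both strands, TGACG stood in 4 of the 8 windows, those of Fos, Fosb, Junb and Atf3, and in 20.8% of all 32851 windows of 300 bases. Fos held it at positions -129 and -66 from the start, Fosb at -60 and Junb at -106. TGACNTCA stood in 1 of 8 windows, as TGACATCA at -45 of Jun, and in 8.83% of all windows. GCGNGGGCG stood in 2 of 8 windows, Fosb at -50 and Fosl2 at -79, and in 5.55% of all. The AP-1 site TGACTCA was in 0 of 8 windows and in 5.20% of all, and the CArG box, the site of serum response factor, in 0 of 8 and in 1.63% of all. These matches are descriptions of letters in the windows, and a TGACG inside a TGACNTCA would count under both. Sites outside the windows were not searched, so a count of 0 covers the windows of the 8 genes alone.

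The first comparison asks how the genes stood after infarction. Over all nuclei, the Fos subunits that are classical immediate early genes were nearly silent at homeostasis. Fos stood at 69.3 CPM in Q150X 3dpMI, 33.7 in WT 3dpMI, 1.07 in Q150X homeostasis and 1.27 in WT homeostasis. Fosb stood at 39.8, 16.7, 0.119 and 0.546 CPM in the same order, the last 2 values being 1 and 3 UMIs. For both genes the intervals of the 3dpMI libraries lay far above those of the homeostasis libraries, and those of the Q150X and WT 3dpMI libraries did not overlap. Depth, mitochondrial share and erythroid RNA also differed between 3dpMI and homeostasis, as given above, and their part in these ratios was not tested.

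The ratio of 3dpMI to homeostasis was 64.7 (34.0 to 142) in Q150X and 26.5 (12.8 to 66.1) in WT for Fos, and 334 (59.9 to 13215) and 30.6 (10.4 to 149) for Fosb. Fosl2, which encodes the Fos relative Fra-2 and is induced more slowly, differed less, at 2.44-fold in Q150X and 2.43-fold in WT. Among the Jun subunits the ratios were 4.38 and 5.28 for Junb, 2.16 and 2.43 for Jund, which is known for steady expression, and 2.83 and 1.52 for Jun. Jun was the member with the smallest ratio in WT. Atf3, a stress-induced repressor of the same protein family, was 8.45-fold higher in Q150X and 4.41-fold in WT. Egr1, a zinc finger factor, was 3.34-fold and 5.48-fold higher, Myc, a growth regulator, 10.4-fold and 9.93-fold, and Ier3, which modulates survival signalling, 6.85-fold and 10.2-fold.

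All 10 intervals lay above 1 in both genotypes, as did those of 55.8% of all genes tested in Q150X and 61.2% in WT. At least 2-fold higher were 10 of 10 genes in Q150X, where 25.7% of all genes tested were, and 9 of 10 in WT, where 29.8% were. The median log2 ratio of the 10 genes was 2.45 in Q150X and 2.43 in WT, against 0.40 and 0.56 for all genes. Both contrasts mix classes whose shares differ: macrophages and monocytes were 36.6% and 18.5% of the Q150X and WT nuclei at 3dpMI and 6.59% and 1.99% at homeostasis.

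**Figure D1:**
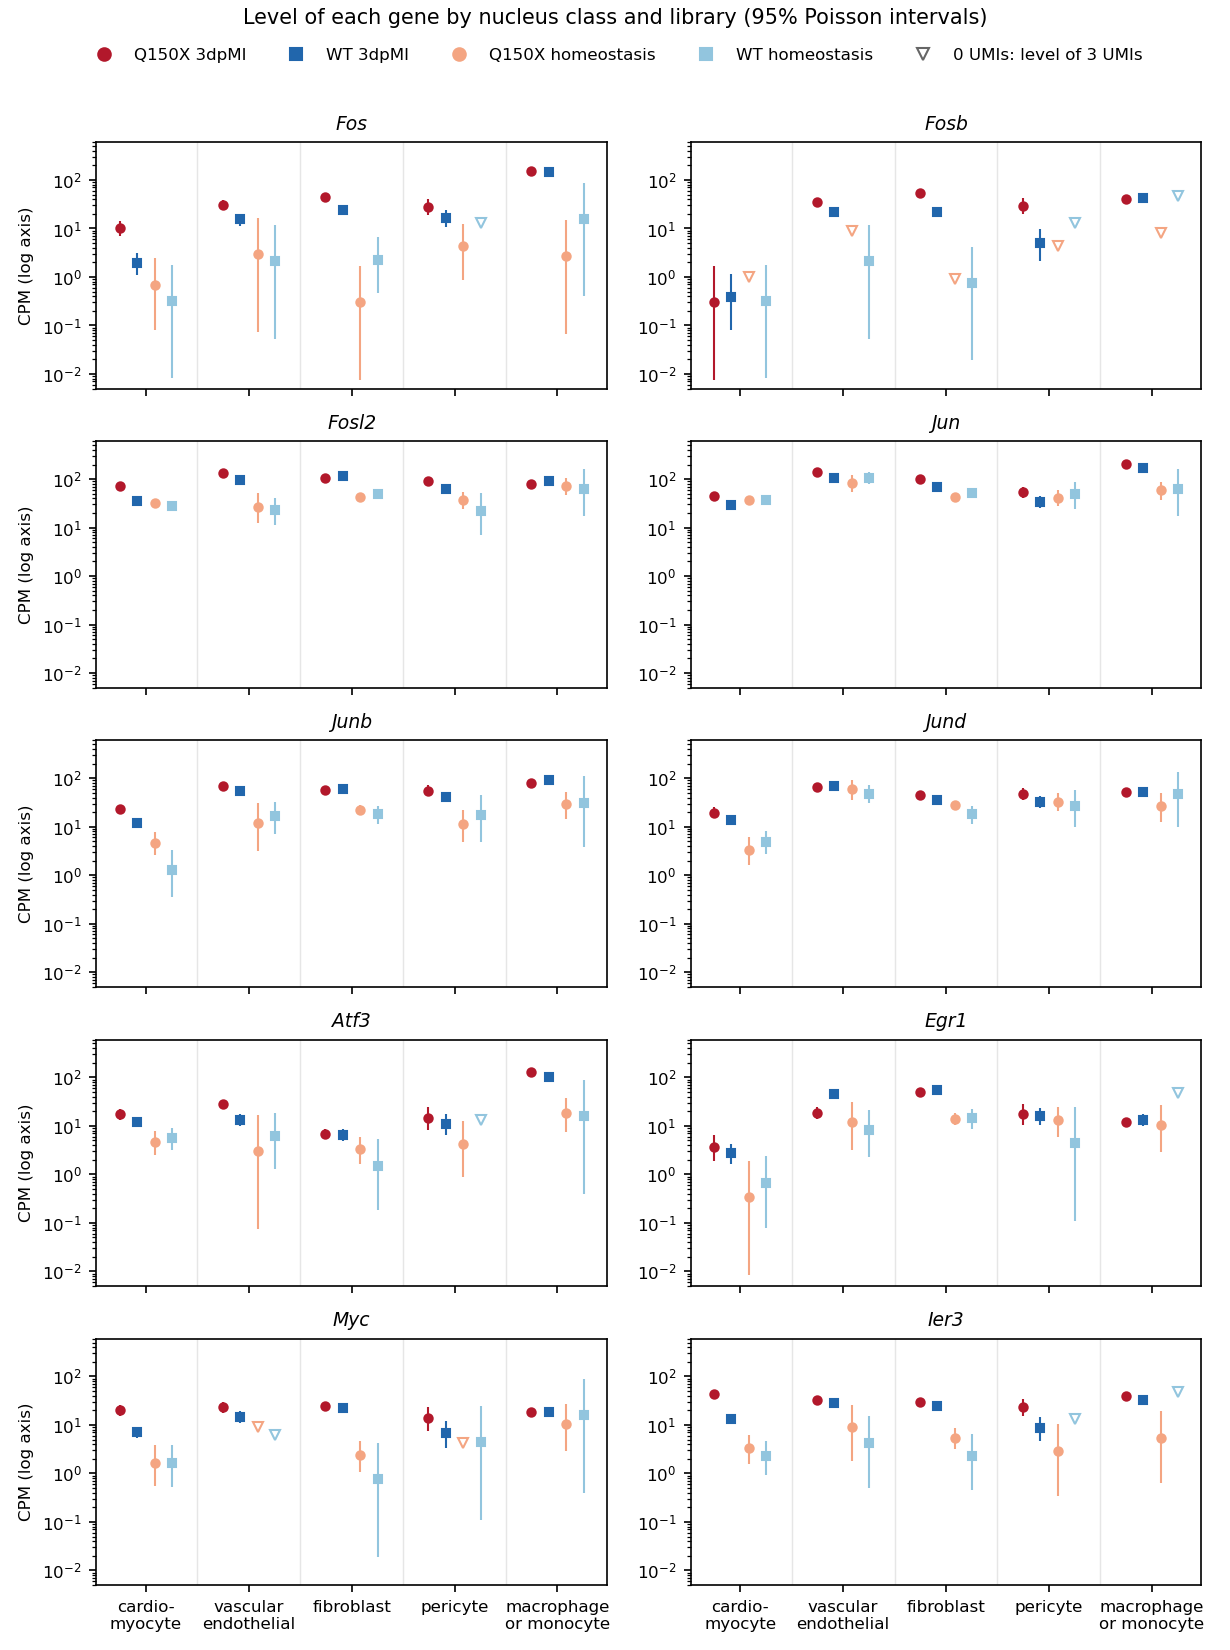
Level of each gene (CPM, log axis) in 5 classes of nuclei, with 1 point per library and bars for 95% Poisson intervals; open triangles mark 0 UMIs, drawn at the level that 3 UMIs would give. Fos and Fosb sit lower at homeostasis than at 3dpMI in fibroblasts, and Fos in macrophages at 3dpMI (156 and 148 CPM) is the highest Fos level of the 5 classes.

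By class, the genes differed in where they were highest at 3dpMI. Fos was highest in macrophages and monocytes, at 156 CPM in Q150X and 148 in WT, and lowest in cardiomyocytes, at 10.2 and 1.93. Macrophages and monocytes held 59.3% of the Fos UMIs of the Q150X library and 63.3% of those of the WT library, while they held 26.3% and 14.4% of all UMIs. Atf3 was highest there too, at 126 CPM in Q150X and 100.5 in WT, and its interval did not overlap that of the second class, dendritic cells, at 74.1 and 57.1 CPM. They held 71.6% of the Atf3 UMIs in Q150X and 60.3% in WT. Fibroblasts held 68.9% of the Egr1 UMIs in Q150X and 56.8% in WT, while they held 37.1% and 28.0% of all UMIs. By level they came second for Egr1, at 49.4 and 54.6 CPM, behind lymphatic endothelium in Q150X (55.9 CPM) and endocardium in WT (57.0 CPM), with overlapping intervals. Of Fosb UMIs, fibroblasts held 49.9% and 36.0%.

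Jun was highest in macrophages and monocytes in both 3dpMI libraries, at 209 CPM in Q150X and 172 in WT, with an interval that overlapped the next class in each. Junb was highest in dendritic cells, at 103 and 108 CPM, and lowest in cardiomyocytes, at 22.9 and 11.9. Ier3 was highest in cardiomyocytes in Q150X, at 44.3 CPM, where its interval overlapped that of macrophages, while in WT macrophages were highest at 32.6 CPM. For each of the 10 genes, at most 1 of the 9 steps between neighbouring classes in that order was wider than the intervals.

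Fos and Fosb were carried by few nuclei of the fibroblast class. In Q150X 3dpMI fibroblasts 453 Fos UMIs came from 138 of 1822 nuclei, with up to 28 in a single nucleus, and in WT 175 UMIs came from 63 of 1816 nuclei. The 537 Fosb UMIs of Q150X fibroblasts came from 122 nuclei and the 160 of WT from 43. Fosl2 was found in more nuclei, with 1056 UMIs in 627 nuclei of Q150X fibroblasts and 855 in 508 of WT, and Ier3 had 301 UMIs in 226 nuclei of Q150X and 179 in 129 of WT. In macrophages and monocytes the Fos UMIs came from 542 of 2696 nuclei in Q150X and 222 of 1566 in WT.

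Depth was matched by thinning each nucleus to 500 UMIs, which left out no nucleus of the classes named here. After thinning, 6.90% of Q150X and 5.49% of WT macrophages at 3dpMI had a Fos UMI, with overlapping intervals, against 20.1% and 14.2% unthinned. Fosb was found in 2.25% (1.62 to 3.04) of Q150X fibroblasts and in 0.606% (0.303 to 1.08) of WT fibroblasts, which do not overlap. In cardiomyocytes, which had little Fosb, the thinned share was 0 of 420 and 0 of 1207 nuclei, with upper bounds of 0.874% and 0.305%. The unthinned Fosb shares there were 0.238% and 0.249% at median depths of 7307 and 5980 UMIs. Ier3 was found in 3.10% (1.66 to 5.23) of Q150X cardiomyocytes and 0.414% (0.135 to 0.964) of WT cardiomyocytes. The intervals were also apart for Jun, at 4.67% (3.74 to 5.74) of Q150X and 2.42% (1.77 to 3.24) of WT fibroblasts and at 7.83% (6.35 to 9.54) of Q150X and 4.70% (3.84 to 5.69) of WT vascular endothelial nuclei. For Atf3 they were apart in macrophages and monocytes, at 5.12% (4.32 to 6.02) in Q150X and 3.19% (2.38 to 4.19) in WT.

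**Figure D2:**
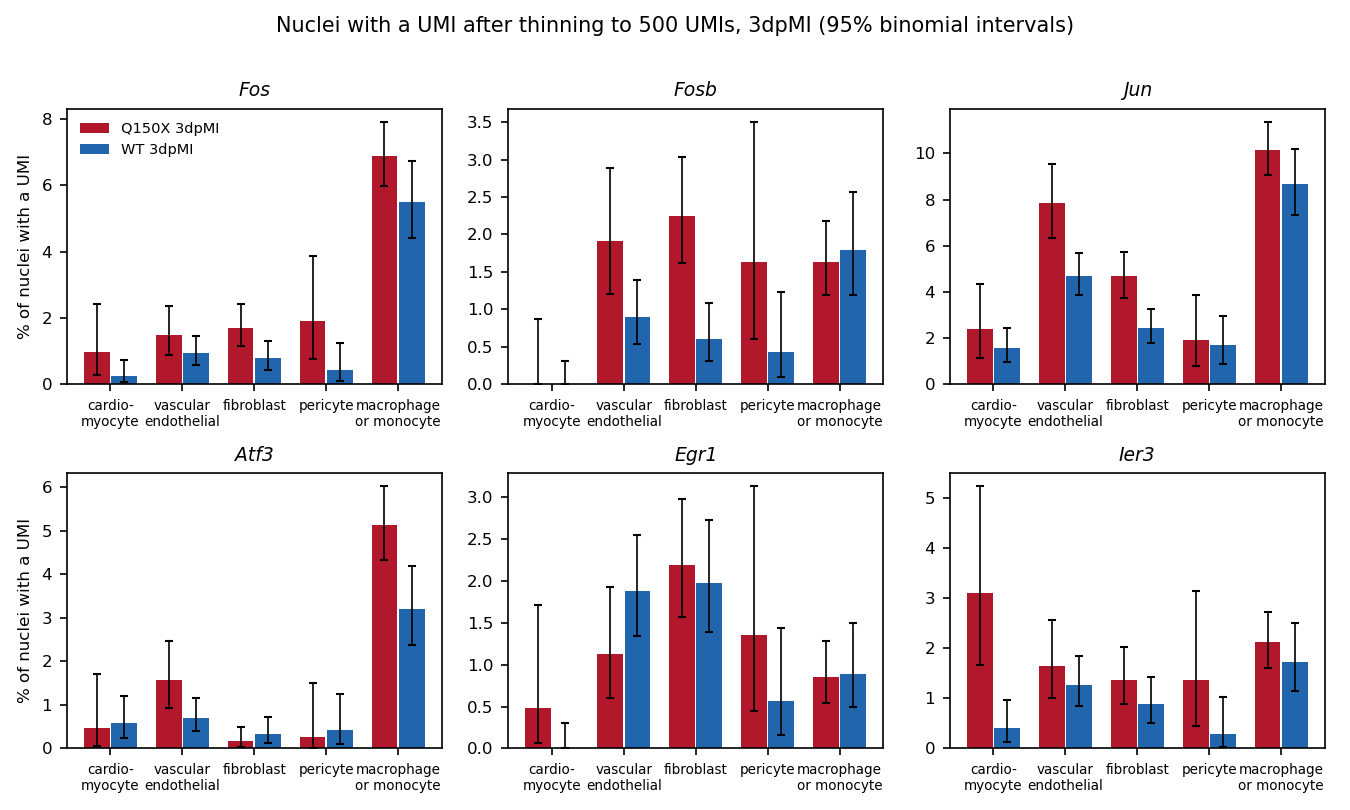
Percent of nuclei with at least 1 UMI of 6 of the genes after thinning each nucleus to 500 UMIs, in 5 classes of the 2 libraries at 3dpMI, with exact binomial 95% intervals. Q150X and WT intervals are apart for Fosb in fibroblasts (2.25% and 0.606%), Jun in fibroblasts (4.67% and 2.42%) and vascular endothelium (7.83% and 4.70%), Atf3 in macrophages (5.12% and 3.19%) and Ier3 in cardiomyocytes (3.10% and 0.414%).

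The second comparison set Q150X against WT at 3dpMI. Over all nuclei, Fosb was 2.38-fold (2.13 to 2.67) higher in Q150X, Fos 2.06-fold (1.90 to 2.23), Atf3 1.92-fold (1.75 to 2.12) and Jun 1.66-fold (1.57 to 1.75), while Egr1 had a ratio of 0.989 (0.891 to 1.10). At least 2-fold higher were 2 of 10 genes, against 2.89% of all genes tested. When both libraries were given the class make-up of WT 3dpMI, a calculation added after the data were seen, the ratios were 1.45 for Fos, 1.84 for Fosb, 1.48 for Atf3, 1.39 for Jun and 0.825 for Egr1. Levels within classes are therefore given next.

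In cardiomyocytes all 7 genes with at least 50 UMIs, and Fos at 49, had a ratio of Q150X to WT with an interval above 1 at 3dpMI, against 19.8% of all genes tested. Fos was 10.2 CPM (34 UMIs) in Q150X 3dpMI, 1.93 (15 UMIs) in WT 3dpMI, 0.668 in Q150X homeostasis and 0.324 in WT homeostasis. Ier3 stood at 44.3 CPM in Q150X 3dpMI, 13.2 in WT 3dpMI, 3.34 in Q150X homeostasis and 2.26 in WT homeostasis. Myc stood at 19.9, 7.06, 1.67 and 1.62 CPM in that order. For these 3 genes the Q150X 3dpMI level was the highest and its interval overlapped none of the others.

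The ratio of Q150X to WT at 3dpMI was 5.32 (2.82 to 10.5) for Fos, 3.35 (2.59 to 4.35) for Ier3 and 2.82 (1.94 to 4.10) for Myc. Fosl2 was 2.02-fold (1.69 to 2.41) higher and Junb 1.92-fold (1.40 to 2.62), followed by Jun at 1.54, Atf3 at 1.48 and Jund at 1.44, each with an interval above 1. After thinning, the shares of cardiomyocytes with a UMI had Q150X and WT intervals apart for Ier3 alone of these genes. The thinned shares were 0.714% in Q150X and 0.746% in WT for Junb and 0.476% and 0.580% for Atf3. They were 2.38% and 1.57% for Jun and 1.43% and 1.33% for Jund. All these shares rest on few nuclei. The Egr1 ratio of 1.34 had an interval of 0.601 to 2.85, and Fosb had 1 and 3 UMIs. Counted over genes with 50 UMIs or more in the 2 libraries together, which left out Fos at 49 UMIs, Egr1 and Fosb, 3 of 7 were at least 2-fold higher, against 2.61% of all genes tested. With nuclei weighted equally the log2 ratio of Fosl2 was 0.72, against 1.01, which is under 2-fold, and that of Ier3 was 1.32, against 1.74. Over the 9 genes with 20 UMIs or more the median log2 ratio was 0.94, against 0.04 for all genes.

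The cardiomyocytes of the 2 libraries fell into clusters in different shares. Cluster 10, with Xirp2 and the stretch-responsive gene Ankrd1 among its 10 leading genes, held 64.0% of Q150X and 34.4% of WT cardiomyocytes at 3dpMI, and cluster 8, led by Ppargc1a, held 21.0% and 50.9%. Within cluster 10 the ratio was 4.12 (1.79 to 10.6) for Fos, 2.54 (1.90 to 3.42) for Ier3, 1.86 (1.26 to 2.76) for Myc, 1.74 (1.41 to 2.14) for Fosl2 and 1.51 (1.05 to 2.16) for Junb, while Atf3 had 0.9802 (0.681 to 1.40). Within cluster 8 every interval included 1, with 1 Fos UMI in Q150X and 6 in WT. In cluster 22, led by Nppa, Fos had 9 UMIs in Q150X and 1 in WT.

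Of the Fos UMIs of Q150X cardiomyocytes, 17.6% lay in a single nucleus, and without the top nucleus of each library the ratio was 5.05 (2.53 to 10.6). Macrophage markers stood in these nuclei at a median of 2.50% of their macrophage level in Q150X and 1.80% in WT. At that share macrophage RNA would bring 3.90 and 2.66 CPM of Fos, of 10.2 and 1.93 measured, and 0.966 and 0.587 CPM of Ier3. For Fos in WT cardiomyocytes the measured level is therefore below this estimate.

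**Figure D3:**
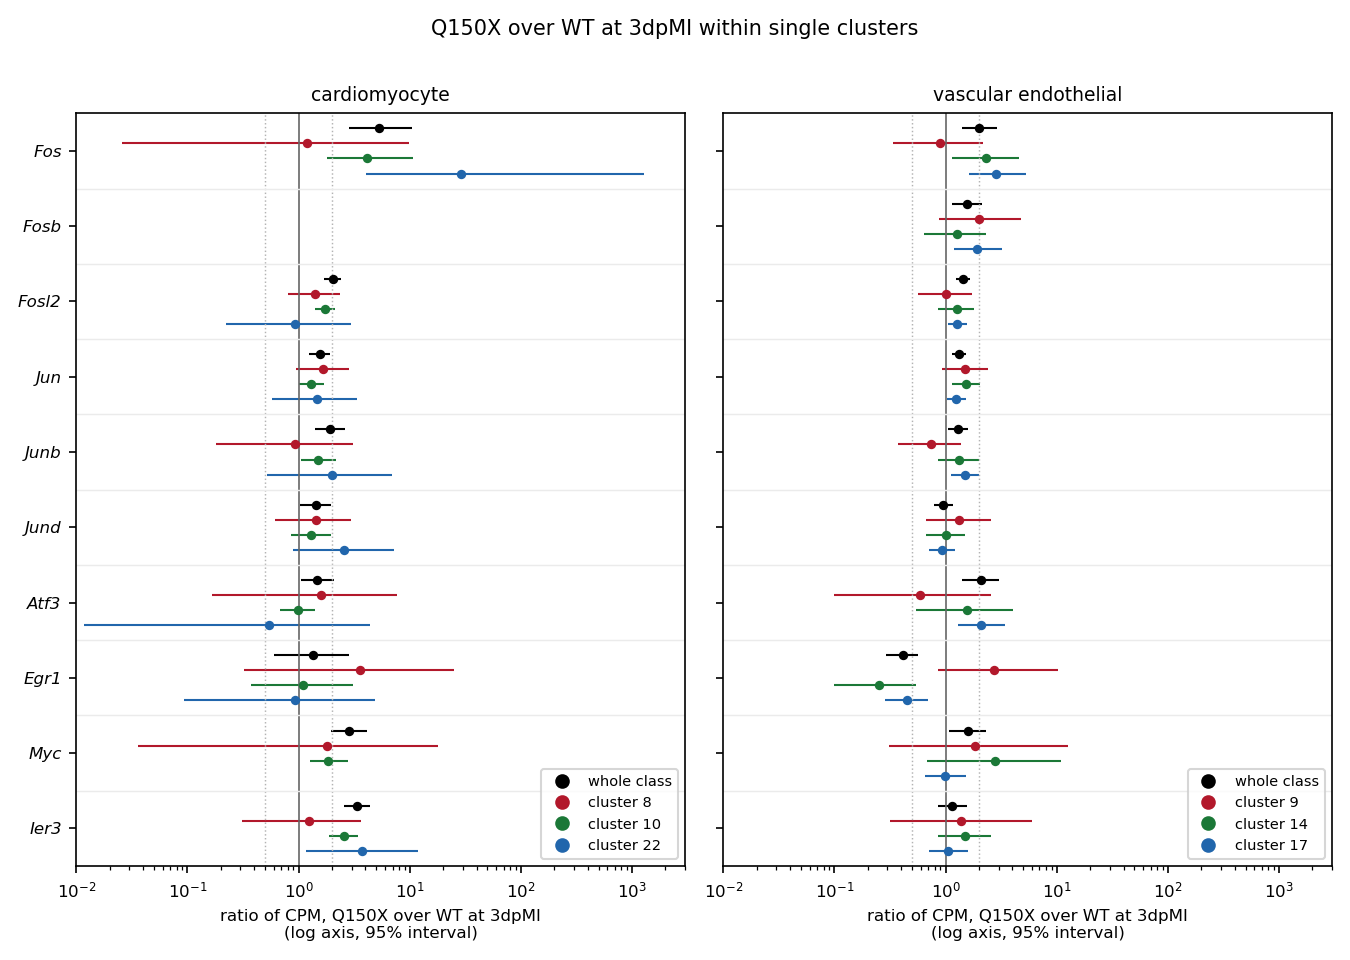
Ratio of CPM, Q150X over WT at 3dpMI (log axis, points with 95% intervals), of genes with at least 5 UMIs, for whole cardiomyocyte and vascular endothelial classes (black) and for 3 clusters of each. Fos, Fosl2, Myc and Ier3 lie above 1 within cardiomyocyte cluster 10, and Egr1 lies below 1 within vascular endothelial clusters 14 and 17.

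Genes around the 10 were read from lists. In cardiomyocytes 7 of 10 other immediate early genes with at least 50 UMIs were at least 2-fold higher in Q150X, and the list's median log2 ratio was 1.11. Of all genes tested in this class, 2.61% were at least 2-fold higher, the share to set beside each list. Phlda1, an early survival regulator, was 3.34-fold (2.65 to 4.23) higher and Hbegf, a growth factor shed from the cell surface, 2.67-fold (2.05 to 3.49). Of 13 genes linked to AP-1 or Egr1 as targets, 5 were at least 2-fold higher, among them Ccn2, the connective tissue growth factor, at 2.59-fold (2.31 to 2.91), while the matrix gene Tnc had a ratio of 0.7005, and the list's median was 0.66. Among 14 other leucine zipper partners 1 was at least 2-fold higher, Cebpd at 2.45, with a median of 0.45. Of 14 feedback regulators 0 were, with Zfp36, which speeds decay of early mRNAs, at 1.96 (1.44 to 2.66) and a median of 0.38.

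Upstream kinases and serum response partners had a median log2 ratio of -0.02 over 20 genes, with Srf at 1.70, Map2k1 at 1.65 and Map2k6 at 0.183. The Myc network had a median of -0.07 and Myc-linked growth genes 0.33, with Ldha at 1.55. Heat shock and handling stress genes had a median of 0.06. Of these, 2 of 12 were at least 2-fold higher, against 2.61% of all genes tested: Hspb1 at 2.75 and Gadd45g at 2.23. Whether handling of the tissue has a part in the early gene levels was not tested.

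Vascular endothelial nuclei, the class in which VEGF receptors are known to act, split the genes. Fos stood at 30.9 CPM in Q150X 3dpMI, 15.4 in WT 3dpMI, 2.96 in Q150X homeostasis and 2.09 in WT homeostasis, and the intervals of the 3dpMI libraries did not overlap. Egr1 stood at 18.3 CPM (51 UMIs), 44.6 (154 UMIs), 11.8 and 8.36 in the same order. The WT 3dpMI level of Egr1 was above all others, and that of Q150X 3dpMI overlapped both homeostasis levels.

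Atf3 was 2.07-fold (1.42 to 3.06) higher in Q150X at 3dpMI and Fos 2.01-fold (1.41 to 2.89), followed by Myc at 1.58, Fosb at 1.56, Fosl2 at 1.43, Jun at 1.33 and Junb at 1.29, each with an interval above 1, which 19.6% of all genes tested had. The Ier3 ratio of 1.15 and the Jund ratio of 0.951 had intervals that included 1. Egr1 had a ratio of 0.410 (0.293 to 0.566). Thus 2 of 10 genes were at least 2-fold higher, against 2.42% of all genes tested, and 1 was at least 2-fold lower, against 2.08%.

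Here too the clusters differed, since cluster 17, led by Kit and Col18a1, held 64.4% of Q150X and 34.8% of WT endothelial nuclei, and cluster 14, led by Ccdc85a and Btnl9, 27.3% and 55.8%. Egr1 was lower in Q150X in both, at 16.6 against 36.9 CPM in cluster 17, a ratio of 0.451 (0.285 to 0.702), and at 15.1 against 59.9 CPM in cluster 14, a ratio of 0.252 (0.0987 to 0.541). In the arterial-gene cluster 9, led by Gja5, it was 36.2 against 13.2 CPM (10 and 5 UMIs), with an interval of 0.857 to 10.3. Fos was higher in Q150X within cluster 17, at 2.83-fold (1.61 to 5.26), and within cluster 14, at 2.33-fold (1.15 to 4.61). Macrophage RNA at the median share of its markers, 7.58% and 5.78%, would bring 11.8 and 8.56 CPM of Fos and 9.56 and 5.81 CPM of Atf3, of 27.6 and 13.3 CPM of Atf3 measured.

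None of 17 other immediate early genes was at least 2-fold higher in this class, against 2.42% of all genes tested, with a median log2 ratio of 0.04. Of 13 target genes 3 were, among them Hmox1, a stress-induced haem-degrading enzyme, at 2.90 and Spp1 at 2.37. Hmox1 was also a leading gene of macrophage cluster 24, and Spp1 was higher in Q150X macrophages too. Macrophage markers stood in this class at a median of 7.58% and 5.78% of their macrophage level. The part of macrophage RNA in these ratios was not tested.

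When each library was clustered by itself, the log2 ratio of Fos in vascular endothelial nuclei was 2.97, against 1.01 for shared clustering, that of Atf3 1.68, against 1.05, that of Ier3 0.85, against 0.20, that of Jun 0.78, against 0.42, and that of Fosl2 0.14, against 0.52. In that clustering 1 of the 2 Q150X 3dpMI clusters so named, of 122 nuclei, had the macrophage gene F13a1 among its 10 leading genes. With shared clustering at resolution 2 the log2 ratio of Myc in this class was 1.26, against 0.66, and that of Fosl2 0.30, against 0.52.

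Endocardial nuclei, which line the chambers, had Egr1 at 11.05 CPM (4 UMIs) in Q150X 3dpMI and 57.0 (27 UMIs) in WT 3dpMI, a ratio of 0.194 (0.0493 to 0.556). Lymphatic endothelial nuclei, 63 and 72 in number, had Fos at 127 CPM (34 UMIs) in Q150X and 15.2 (5 UMIs) in WT, a ratio of 8.32 (3.24 to 27.2). Jun there was 3.28-fold (1.91 to 5.89) higher, and Egr1 6.12-fold (1.73 to 33.0), from 15 UMIs in 5 nuclei of Q150X and 3 UMIs in WT. Fosb had 36 UMIs against 1. The lymphatic values rest on few nuclei: 32.4% of the Q150X Fos UMIs were in a single nucleus, and the 36 Fosb UMIs in 9 nuclei. Macrophage RNA at the median share of its markers, 8.14% and 9.47%, would bring 12.7 and 14.02 CPM of Fos there. Without the top nucleus of each library the lymphatic ratio was 14.3 (3.53 to 125) for Fos and 3.11 (1.70 to 5.94) for Jun.

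**Figure D4:**
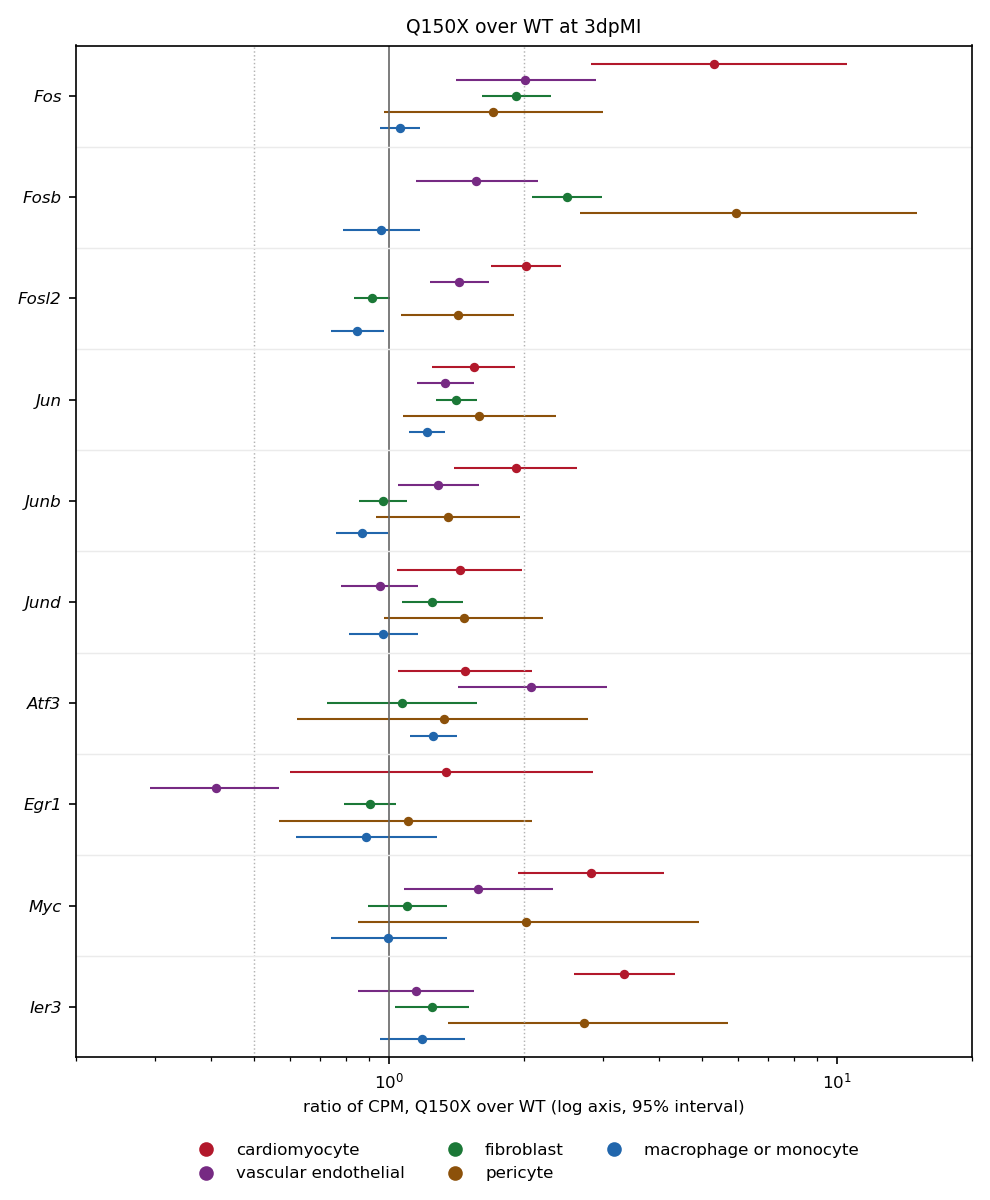
Ratio of CPM, Q150X over WT at 3dpMI (log axis, points with 95% intervals), of genes with 20 UMIs or more in the 2 libraries together, in 5 classes; the solid line marks 1 and the dotted lines 0.5 and 2. Cardiomyocytes show the highest ratios of Fos (5.32) and Ier3 (3.35), macrophages and monocytes lie between 0.848 and 1.25, and Egr1 in vascular endothelium (0.410) is the lowest ratio shown.

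In fibroblasts Fos and Fosb were higher in Q150X at 3dpMI, while Egr1 and Fosl2, the latter at a log2 ratio of -0.13, were not. Fosb stood at 53.5 CPM in Q150X 3dpMI and 21.5 in WT 3dpMI, with 0 UMIs in Q150X homeostasis and 1 in WT homeostasis. Fos stood at 45.1, 23.5, 0.303 and 2.26 CPM in the same order, the last 2 values being 1 and 3 UMIs. The ratio of Q150X to WT at 3dpMI was 2.49 (2.08 to 2.99) for Fosb, 1.92 (1.61 to 2.30) for Fos, 1.41 (1.27 to 1.57) for Jun, 1.25 for Jund and 1.25 for Ier3, each with an interval above 1, which 16.6% of all genes tested had. Egr1 stood at 49.4 and 54.6 CPM, a ratio of 0.905 (0.792 to 1.03), and Junb at 58.3 and 60.2. Only Fosb was at least 2-fold higher, 1 of 10, against 1.15% of all genes tested.

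Cluster 19, led by Kif26b and Tnc and with Postn, a gene of activated fibroblasts, held 81.7% of Q150X and 53.7% of WT fibroblasts at 3dpMI. Within it the ratio was 2.41 (1.98 to 2.95) for Fosb, 1.74 (1.44 to 2.11) for Fos and 0.844 (0.731 to 0.974) for Egr1. Of the surrounding genes, Plk3, a stress-responsive kinase, was 1.75-fold and Ccn1, an early matricellular gene, 1.40-fold (1.27 to 1.55) higher in Q150X fibroblasts, while Klf4 had a ratio of 0.639 and Spry4, a feedback inhibitor of growth factor signalling, 0.680. None of 21 other immediate early genes was at least 2-fold higher there, against 1.15% of all genes tested, with a median log2 ratio of 0.05. Macrophage RNA at the median share of its markers, 5.55% and 3.17%, would bring 8.65 and 4.69 CPM of Fos and 2.24 and 1.33 CPM of Fosb.

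Pericytes, the mural cells of capillaries, had Fosb at 29.3 CPM (30 UMIs) in Q150X 3dpMI and 4.92 (8 UMIs) in WT 3dpMI, a ratio of 5.96 (2.67 to 15.04), with 0 UMIs in both homeostasis libraries. Macrophage RNA at the median share of its markers, 11.05% and 11.1%, would bring 4.45 and 4.67 CPM of Fosb. Ier3 was 2.72-fold (1.35 to 5.69) higher, and Fosl2 and Jun 1.42-fold and 1.59-fold, with intervals above 1. None of the 5 genes with at least 50 UMIs was at least 2-fold higher, against 1.19% of all genes tested, and Fosb and Ier3 were not among those 5. With finer clusters (resolution 2) the Fos log2 ratio, Q150X over WT at 3dpMI, pericyte class, was -0.80, against 0.77, and the Jun log2 ratio, Q150X over WT at 3dpMI, pericyte class, was -0.01, against 0.67.

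Macrophages and monocytes had the highest Fos, Jun and Atf3 of the classes at 3dpMI, and the ratios of the 10 genes, Q150X over WT, lay between 0.848 and 1.25. Jun stood at 209 CPM in Q150X 3dpMI and 172 in WT 3dpMI, a ratio of 1.21 (1.11 to 1.33), and Atf3 at 126 and 100.5, a ratio of 1.25 (1.11 to 1.42). Fosl2 had a ratio of 0.848 (0.741 to 0.971), Junb 0.869 (0.759 to 0.9955) and Fos 1.05 (0.952 to 1.17). No gene of the 10 was at least 2-fold higher or lower, against 0.675% and 2.72% of all genes tested.

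The values within macrophage clusters differed from those of the class. Cluster 5, led by Ccr2, a receptor of recruited monocytes, held 49.7% of Q150X and 41.0% of WT nuclei of the class, cluster 24, led by Gpnmb, 36.6% and 25.3%, and cluster 4, led by Cd163 and Mrc1, genes of resident macrophages, 9.38% and 22.7%. In cluster 5 neutrophil markers scored above those of macrophages and monocytes, though fewer than 3 of them were detected by the same rule. Atf3 stood at 184 and 166 CPM in cluster 24, 86.8 and 105 in cluster 5 and 26.6 and 28.0 in cluster 4. Fos stood at 171 and 198 CPM in cluster 24, 178 and 214 in cluster 5 and 16.0 and 31.5 in cluster 4. The Fos ratio was 0.834 (0.703 to 0.991) in cluster 5, with an interval below 1, while the intervals of cluster 24 (0.748 to 1.002) and cluster 4 (0.234 to 1.04) included 1. In the smaller cluster 7 the Fos ratio was 1.59 (1.14 to 2.22), and no interval of Atf3 in these 4 clusters left out 1. Within cluster 5, Fosl2 had a ratio of 0.568 (0.464 to 0.697) and Junb 0.733 (0.593 to 0.910). Of 14 target genes in the class 1 was at least 2-fold higher, against 0.675% of all genes tested, and 10 had an interval above 1, against 13.5%. Of 15 stress genes 1 was at least 2-fold higher and 2 lower, against 0.675% and 2.72% of all genes tested. Hspa1a and Hspa1b, inducible heat shock genes, had ratios of 0.433 and 0.341, and Gadd45b 2.55. Spp1, a target of AP-1 that macrophages secrete, was 2.21-fold (2.07 to 2.36) higher.

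Among smaller immune classes, dendritic cells had Fosb at 72.4 CPM (43 UMIs) in Q150X 3dpMI and 19.0 (6 UMIs) in WT 3dpMI, a ratio of 3.81 (1.61 to 10.9). Macrophage markers stood in dendritic cells at a median of 37.3% and 29.5% of their macrophage level, a share at which macrophage RNA would bring 15.04 and 12.4 CPM of Fosb. Any expression of these markers by the class itself would count in such a share, so it is not a measured share of free RNA. T or NK cells, 81 and 50 nuclei, had 15 Fosb UMIs in Q150X (62.2 CPM) and 1 in WT (8.60 CPM), where the marker shares were 37.5% and 11.6% and macrophage RNA would bring 15.1 and 4.90 CPM.

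The third comparison, 3dpMI over homeostasis within classes, shares the 3dpMI libraries with the second, so its values are given side by side only. In cardiomyocytes Ier3 was 13.3-fold (7.01 to 28.2) higher at 3dpMI in Q150X and 5.84-fold (2.73 to 14.9) in WT, Myc 11.9-fold and 4.37-fold, and Junb 4.90-fold and 9.23-fold. Jun stood at 44.6 CPM in Q150X 3dpMI and 36.7 in Q150X homeostasis, a ratio of 1.21 (0.942 to 1.57), and at 28.9 in WT 3dpMI and 36.9 in WT homeostasis, a ratio of 0.783 (0.623 to 0.9901). At least 2-fold higher were 6 of 7 genes with at least 50 UMIs in Q150X, against 14.4% of all genes tested, and 5 of 7 in WT, against 18.1%. With nuclei weighted equally, 2 of the 6 in Q150X came under 2-fold: the log2 ratio of Atf3 was 0.89, against 1.90, and that of Fosl2 0.74, against 1.13, while that of Jun was 0.65, against 0.28. Cluster 8 held 94.7% and 97.1% of Q150X and WT cardiomyocytes at homeostasis, against 21.0% and 50.9% at 3dpMI.

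In fibroblasts Fosb was at least 58.9-fold higher at 3dpMI in Q150X, taking 3 UMIs in the class for its 0 at homeostasis, and 28.6-fold (5.06 to 1137) in WT, where homeostasis had 1 UMI. Egr1 was 3.55-fold (2.62 to 4.91) higher in Q150X and 3.82-fold (2.41 to 6.41) in WT, and Junb 2.64-fold and 3.34-fold. Among nuclei with at least 1000 UMIs the log2 ratio of Egr1 in WT was 2.99, against 1.93. All 10 intervals lay above 1 in both genotypes, as did those of 43.3% of all genes tested in Q150X and 36.6% in WT, and 9 of 10 genes in Q150X and 8 of 10 in WT were at least 2-fold higher, against 19.0% and 22.3% of all genes tested. Jun was 2.33-fold (1.95 to 2.80) higher in Q150X and 1.33-fold (1.03 to 1.73) in WT. After thinning, a Jun UMI was found in 2.42% (1.77 to 3.24) of WT fibroblasts at 3dpMI and 2.63% (1.88 to 3.58) at homeostasis. In Q150X the thinned shares were 4.67% (3.74 to 5.74) and 1.96% (1.49 to 2.53), with intervals apart. Without doublet removal the log2 ratio of Atf3 in Q150X was 2.22, against 1.05. The clusters differed, since cluster 19 held 81.7% of Q150X and 53.7% of WT fibroblasts at 3dpMI, against 0.339% and 0.135% at homeostasis, and cluster 2 held 6.64% and 22.9% at 3dpMI, against 69.8% and 63.8% at homeostasis.

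In vascular endothelium Fosl2 was 5.08-fold (2.65 to 11.2) higher at 3dpMI in Q150X and 4.10-fold (2.26 to 8.29) in WT. Egr1 had a ratio of 1.55 (0.569 to 5.90) in Q150X and 5.34 (2.04 to 19.9) in WT, each from 4 UMIs at homeostasis. Myc was not found at homeostasis in either genotype, which bounds its ratio at no less than 2.63 and 2.36 when 3 UMIs in the class are taken for 0. At least 2-fold higher were 7 of 10 genes in Q150X, against 19.9% of all genes tested, and 7 of 9 in WT, against 18.9%. The median log2 ratio of the genes was 1.91 in Q150X and 1.85 in WT, and the Q150X median was -0.20 when only nuclei with at least 1000 UMIs were kept. Under that minimum the Q150X log2 ratio of Fosl2 was 1.17, against 2.34, and that of Jund -0.70, against 0.17. Cluster 17 held 64.4% of Q150X and 34.8% of WT nuclei of the class at 3dpMI, against 8.45% and 1.69% at homeostasis. Cardiomyocyte markers in this class were lower at 3dpMI than at homeostasis in Q150X (1011 and 9123 CPM) and higher in WT (4755 and 3332 CPM). Erythroid markers summed to 102 CPM at 3dpMI and 14070 CPM at homeostasis in Q150X, and to 94.5 and 1059 CPM in WT, and the mitochondrial share of UMIs was 0.164% and 1.80% in Q150X and 0.267% and 1.61% in WT. The part of these in the ratios was not tested.

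In macrophages and monocytes of Q150X, Fos stood at 156 CPM at 3dpMI and at 2.66 CPM, 1 UMI, at homeostasis, a ratio of 58.8 (10.5 to 2323). Atf3 was 6.78-fold (3.28 to 16.9), Ier3 7.27-fold (1.99 to 60.4) and Jun 3.57-fold (2.35 to 5.72) higher, while Fosl2 had a ratio of 1.10 (0.747 to 1.68). Among nuclei with at least 1000 UMIs the log2 ratio of Fosl2 was 1.10, against 0.14, that of Jun 2.53, against 1.84, and that of Atf3 1.44, against 2.76. WT homeostasis held 83 such nuclei, and Jun there had 4 UMIs, for a ratio of 2.75 (1.07 to 10.1). The clusters differed, since cluster 4 held 84.7% of Q150X and 84.3% of WT macrophages at homeostasis.

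**Figure D5:**
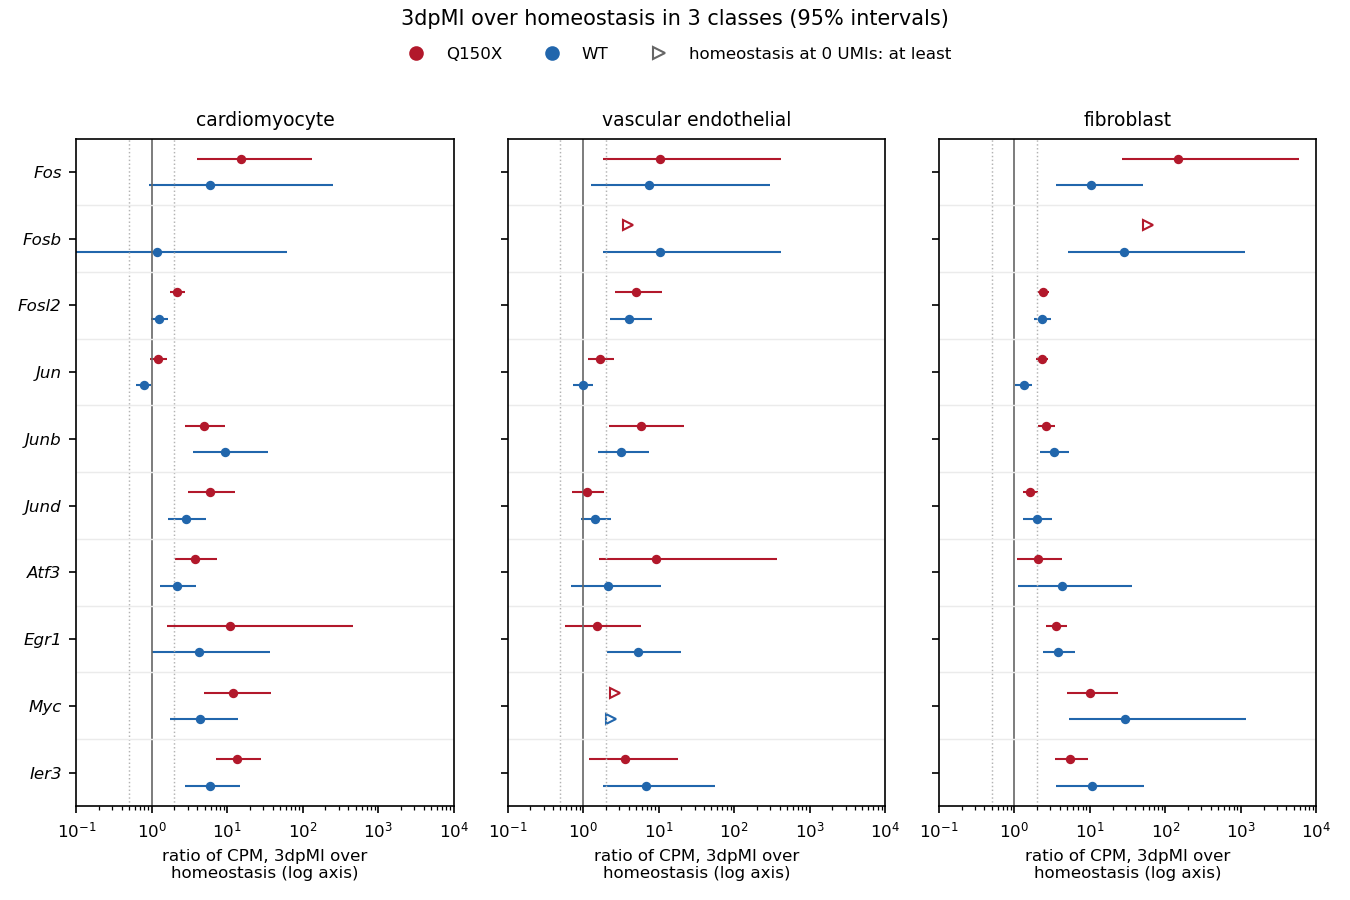
Ratio of CPM, 3dpMI over homeostasis (log axis, points with 95% intervals; open triangles are bounds where homeostasis had 0 UMIs), in Q150X and WT for 3 classes. Jun in cardiomyocytes lies at 1.21 in Q150X and 0.783 in WT. Fos in fibroblasts reaches 149 in Q150X and 10.4 in WT, over only 1 and 3 UMIs at homeostasis.

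At homeostasis, Q150X over WT, counts were small. Over all nuclei Ier3 had a ratio of 2.24 (1.15 to 4.68), Egr1 1.63 (1.03 to 2.64), Junb 1.54 (1.10 to 2.18) and Jund 1.39 (1.07 to 1.81), and the intervals of the other 6 genes included 1. Of 7 genes with at least 50 UMIs, 1, Ier3, was at least 2-fold higher, against 6.55% of all genes tested. These sums mix classes, since cardiomyocytes were 13.6% of Q150X and 37.5% of WT nuclei at homeostasis. Within the 5 classes of the figures, the 1 interval for these genes that left out 1 was Junb in cardiomyocytes, at 4.68 and 1.29 CPM (14 and 4 UMIs).

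Across the 34 sums of a class in a library with at least 50 nuclei, likeness was taken as Pearson's r of log2(CPM + 10) with 10260 genes of at least 500 UMIs. These points share libraries, depth and free RNA, so r is a description. Closest to Fos were Adam8 (r = 0.923), Lgals3 (0.912) and Hmox1 (0.911), all leading genes of macrophage cluster 24. Fosb was closest to Fos itself (0.848), Atf3 to Trafd1 (0.852), Junb to Pfn1 (0.912) and Jund to Arglu1 (0.908). Egr1 was closest to Aebp1 (0.808), Myc to Ddx39b (0.836), Ier3 to the glycolytic gene Pkm (0.846), Fosl2 to Uba1 (0.853) and Jun to Ube2q1 (0.820).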

How the data were processed

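RNA of heart nuclei was counted in 4 libraries, 1 per group. Per the submitters' processing notes, Cell Ranger, Scanpy and build GRCm39 were used; the deposited counts, whole UMI counts per gene and nucleus, came from Cell Ranger 7.1.0 per the file headers. The use of intronic reads and of strand: not given in the sources used here. Totals were 32657625, 30413471, 9283645 and 5875965 UMIs for Q150X 3dpMI, WT 3dpMI, Q150X homeostasis and WT homeostasis.

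Nuclei with at least 500 UMIs, 300 genes and at most 10% mitochondrial UMIs were kept. Doublets were scored per library with Scrublet; where its threshold marked under 0.5% (WT 3dpMI and Q150X homeostasis), the highest scores were removed at 0.8% per 1000 barcodes. Counts were scaled to 10000 per nucleus, and 2000 variable genes, 30 principal components, 15 neighbours and Leiden resolution 1 gave the clusters (Python 3.11.15, scanpy 1.11.5, igraph 0.11.9, numpy 2.4.6, scipy 1.17.1, pandas 2.3.3). A cluster took the class whose markers scored highest, with at least 3 detected. Classes under 50 nuclei in a library were not compared. UMIs were summed per class and library.

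Levels have exact Poisson intervals, ratios exact conditional binomial intervals and shares of nuclei Clopper-Pearson intervals, all at 95%. The ratio interval was tried on simulated data, which does not lift the limits given above. Intervals of levels and ratios leave out the spread between hearts and are too narrow where several molecules came from the same nucleus. Counts of genes past 2-fold use those with at least 50 UMIs over both libraries, medians those with at least 20. The 10 members and the surrounding gene lists were chosen with earlier results of these data known. All 10 genes are named throughout; from each other list, up to 2 genes at each end are eligible, ranked by the interval bound nearest to 1. 1 gene that this rule names is not reported here. Calculations on class make-up, top nuclei, single clusters and free RNA were added after the data were seen.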

Additional observations from a re-analysis of the deposited data

Results flagged for a closer look

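Among ratios with at least 50 UMIs per class, both libraries summed, for 3 pairings of gene and comparison classes lay on opposite sides of 1 with intervals that left out 1; the differences between classes were not tested. Fosl2, Q150X over WT at 3dpMI, had a ratio of 2.02 in cardiomyocytes, 1.43 in vascular endothelium and 1.42 in pericytes, and 0.848 in macrophages and monocytes. With each library clustered by itself the Fosl2 log2 ratio in vascular endothelium was 0.14, against 0.52. Junb in the same comparison had 1.92 in cardiomyocytes, 1.29 in vascular endothelium and 0.869 in macrophages and monocytes. Jun, 3dpMI over homeostasis in WT, had 2.75 in macrophages and monocytes, 1.33 in fibroblasts and 0.783 in cardiomyocytes. WT macrophages at homeostasis were 83 nuclei with 4 Jun UMIs. After thinning, the WT shares of nuclei with a Jun UMI had overlapping intervals at 3dpMI and homeostasis in each of these classes. They were 8.68% and 2.41% in macrophages and monocytes, 2.42% and 2.63% in fibroblasts and 1.57% and 1.54% in cardiomyocytes. With fewer UMIs counted too, Egr1, Q150X over WT at 3dpMI, had 0.410 in vascular endothelium and 0.194 in endocardium, and 6.12 in lymphatic endothelium from 15 and 3 UMIs; this difference was not tested either.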

How the results depend on the processing

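Filters, doublet removal, resolution, separate clustering, equal weights per nucleus, another scaling, thinning and the UMI minimum were varied; the unnamed cluster, the top nucleus and the class make-up were varied as alternatives chosen after the data were seen. Of 170 recomputed medians of the 10 genes, 167 stayed between the median of the genes' lower interval bounds and the median of their upper bounds. That range is not an interval of the median itself. The median log2 ratio of 3dpMI over homeostasis in Q150X was -0.20 in endothelial nuclei with a minimum of 1000 UMIs, and 0.71 in pericytes at resolution 2. The median for Q150X over WT at homeostasis in pericytes was -1.17 with a minimum of 1000 UMIs. Of 1031 recomputed ratios of single genes, 996 stayed within their interval, 34 were marked as moved out of it and 1 as reversed. The reversed one was Jun in pericytes, Q150X over WT at 3dpMI, at a log2 ratio of -0.01 with resolution 2. Some of the 34 changed sign too. Fos in the same class, comparison and setting was -0.80, against 0.77. Jund in endothelial nuclei, 3dpMI over homeostasis in Q150X, was -0.70 with a minimum of 1000 UMIs, against 0.17. Of the 34, 7 came from setting both libraries to the class make-up of WT 3dpMI, where 3 of 10 stayed; without the top nucleus all 54 recomputed ratios stayed. With a minimum of 1000 UMIs the log2 ratio of Fos in macrophages and monocytes, Q150X over WT at 3dpMI, was -0.07, against 0.08, and with nuclei weighted equally that of Fosl2 in fibroblasts was 0.02, against -0.13. Without doublet removal the log2 ratio of Atf3 in fibroblasts, Q150X over WT at 3dpMI, was 0.95, against 0.09. Of 1190 recomputed shares of nuclei, 239 moved: 126 of 200 without thinning, which by construction raises a share with depth, 46 of 190 with a minimum of 1000 UMIs, which leaves out nuclei, and 11 to 21 of 200 under each of the other settings, where the cause was not tested. No paired analysis was possible because each group had 1 library. The small UMI sums at homeostasis limit every ratio over it.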
